A study of Homo sapiens with 4 samples.

Results

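The genes described here encode the Golgi enzymes that add sialic acid, fucose, N-acetylgalactosamine (GalNAc), galactose, N-acetylglucosamine (GlcNAc) or sulfate to the sugar chains of proteins, lipids and proteoglycans. They were chosen by symbol: every probe set annotated to a single gene whose symbol begins with ST3GAL, ST6GAL, ST8SIA, GALNT, B3GALT, B3GNT, B4GALT, B4GALNT, GCNT, MGAT, FUT, CHST, CHSY, CSGALNACT or HS6ST was taken. This gave 240 of 39464 single-gene probe sets and 115 of 19583 genes. By the RefSeq gene table, 107 of the 115 are protein-coding, and the other 8 are antisense or divergent transcripts and pseudogenes that share a prefix (B3GALT5-AS1, ST8SIA6-AS1, FUT8-AS1, GALNTL6-AS1, GALNT7-DT, GCNT1P1, MGAT4EP and GCNT7). A single probe set covered 44 of the genes and 2 to 7 probe sets covered the other 71. For each gene the brightest probe set over all 4 arrays was used, whichever group it was brighter in.

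RNA was measured in LNCaP, an androgen-responsive human prostate cancer cell line, after transduction with a lentivirus. The 2 arrays labelled LNCap ERG held total RNA of cells given a lentivirus for ERG, an ETS-family transcription factor, carried together with red fluorescent protein. The 2 LNCap Vector arrays held RNA of cells given the control lentivirus with the fluorescent protein alone, and both kinds of cell were grown in the same culture medium, seeded and cultured overnight before extraction. Whether each array had its own transduction or culture is not stated, and the p-values therefore cover the difference between arrays alone, some or all of which can be technical.

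Glycosylation in the Golgi is stepwise: each enzyme acts on the product of the one before, taking an activated sugar or sulfate donor that a transporter has brought into the lumen. Polypeptide GalNAc-transferases start mucin-type O-glycans, MGAT enzymes branch N-glycans, and galactosyl- and GlcNAc-transferases lengthen the arms, which sialyl- and fucosyltransferases then cap. Chondroitin synthases and sulfotransferases build and pattern glycosaminoglycan chains. In prostate cancer, altered O-glycan initiation, sialylation and branching have been studied as features of the cell surface.

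ERG itself read 3.42 and 3.29 on the log2 intensity scale in the arrays labelled LNCap ERG, against 3.58 and 3.32 in the LNCap Vector arrays. The targeted gene therefore did not separate the groups at its brightest probe set (log2 fold change -0.10, adjusted p = 0.84 from limma). Every one of these values lies below the background level of 4.45 described below, so that probe set did not read ERG above background in either group. Whether that probe set can read the introduced transcript was not tested, and the groups are therefore named by their labels throughout, as ERG-labelled and vector arrays for short. Of the markers of LNCaP and luminal prostate cells, 8 of 10 were measured and all 8 lay above the background level given below. Of 13 measured markers of fibroblasts, immune, endothelial and basal cells, 11 lay at or below it. The 2 above it were COL1A1, a collagen chain, and VWF, the von Willebrand factor, while PTPRC and CDH5 read 2.92 and 2.85. The log2 of the summed intensity of these markers was 9.31 and 9.21 in the arrays labelled LNCap ERG and 8.97 and 8.96 in the LNCap Vector arrays, and its part in the values below was not tested. By gene, 6 of the 13 had a positive and 7 a negative fold change, with a median of -0.0069, and COL1A1 and VWF were the 2 that were higher at an unadjusted p under 0.05. In RNA from whole cultures, fewer cells that make a transcript and less of it per cell cannot be told apart.

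The members spanned a wide range of intensity. Their log2 intensity, averaged over the 4 arrays, ran between 2.62 (B3GALT5, which extends type 1 chains) and 10.45 (ST3GAL1, which sialylates core 1 O-glycans), with a median of 4.17. To place these levels, 40 genes of other organs, thought unlikely to be used in prostate cells, were read in the same way. They had a median of 3.33, and 36 of the 40 lay at or below a log2 intensity of 4.45, their 90th percentile, which serves below as the background level and was chosen after the values were seen. By this measure 53 members lay above background and 62 at or below it. Against the 95th percentile of the same genes, 6.48, 32 members remained above. Intensities depend on the probes, so the levels of different genes are given as read and are not compared as amounts of RNA.

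No member passed an adjusted p of 0.05 over all genes, where 2 of 19583 genes, or 0.0102%, passed. At an unadjusted p under 0.05, 10 of the 115 members (8.70%) differed, which is close to the 9.71% of all genes. There were 7 that were higher in the arrays labelled LNCap ERG, beside a background of 5.61%, and 3 that were lower, beside 4.11%. The higher ones were ST8SIA4, ST6GAL1, B3GNT9, HS6ST2, ST3GAL1, MGAT3 and the antisense transcript B3GALT5-AS1. The lower ones were CSGALNACT1, GALNT7 and MGAT2. In 29 members (25.2%, background 21.7%) both arrays labelled LNCap ERG lay above both LNCap Vector arrays, and in 11 (9.57%, background 19.1%) both lay below. The remaining 75 overlapped. Among the 53 members above background, 32.1% lay apart on the higher side and 13.2% on the lower side, where 23.8% and 23.1% of all genes above background did so. The median log2 fold change was 0.030 over the members and 0.0078 over all genes, and 95 members differed by less than 0.2 in either direction.

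**Figure D1:**
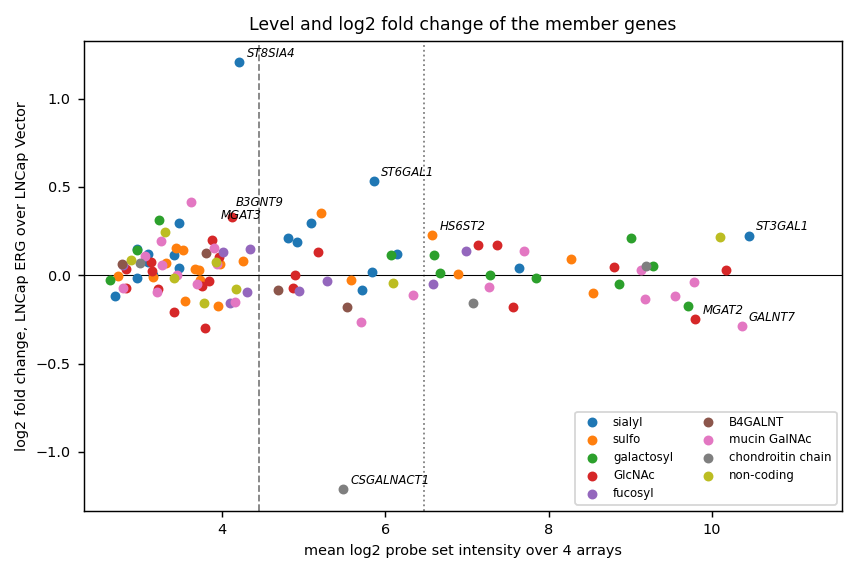
Log2 fold change of each member gene, arrays labelled LNCap ERG over LNCap Vector, against its mean log2 intensity over 4 arrays, 1 point a gene coloured by enzyme class. The dashed and dotted lines mark the 90th (4.45) and 95th (6.48) percentile of 40 genes from other organs, and the named genes are the coding members at an unadjusted p under 0.05, of which ST8SIA4 (1.21) and CSGALNACT1 (-1.21) lie farthest from 0.

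The members with the widest separation belonged to different pathways. ST8SIA4 makes polysialic acid, a long homopolymer best known from the neural cell adhesion molecule, and CSGALNACT1 starts chondroitin sulfate chains on proteoglycan cores. ST6GAL1 adds α2,6-linked sialic acid to the galactose ends of N-glycans. Only these 3 members (2.61%, all genes 1.08%) had a log2 fold change of 0.5 or more in either direction and no overlap between groups. No other member reached that size. Lack of overlap was usual at that size: of all genes 217 reached it, and in 211 of them the groups did not overlap.

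Promoters are shown for the 2 non-overlapping members with the highest fold change, ST8SIA4 and ST6GAL1. Beside them stand the 2 with the lowest among those with a window that could be shown, GALNT7 and MGAT2. Genes with several windows, and those on the chromosome of CSGALNACT1, were not considered. CSGALNACT1, the member with the lowest fold change of all (-1.21), is therefore not shown. The 4 windows were chosen after the values were seen. They are shown because ERG, the factor the lentivirus carries, is an ETS protein and ETS proteins bind around a GGAA core. Each window runs from 250 bases before to 50 bases after the RefSeq gene start in GRCh38.p14, written along the gene's own strand. The positions are chr5:100903233-100903532 on the minus strand for ST8SIA4, and on the plus strand chr3:186930276-186930575 for ST6GAL1, chr4:173168561-173168860 for GALNT7 and chr14:49620549-49620848 for MGAT2. Capitals mark GGAA on the printed strand, TTCC where the core lies on the other strand, and the longer form CCGGAA on either strand.
ST8SIA4: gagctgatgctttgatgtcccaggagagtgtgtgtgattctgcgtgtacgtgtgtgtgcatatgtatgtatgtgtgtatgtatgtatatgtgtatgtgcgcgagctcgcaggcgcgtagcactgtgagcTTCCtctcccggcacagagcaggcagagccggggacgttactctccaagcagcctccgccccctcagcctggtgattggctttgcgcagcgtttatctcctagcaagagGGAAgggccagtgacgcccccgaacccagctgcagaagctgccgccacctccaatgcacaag
ST6GAL1: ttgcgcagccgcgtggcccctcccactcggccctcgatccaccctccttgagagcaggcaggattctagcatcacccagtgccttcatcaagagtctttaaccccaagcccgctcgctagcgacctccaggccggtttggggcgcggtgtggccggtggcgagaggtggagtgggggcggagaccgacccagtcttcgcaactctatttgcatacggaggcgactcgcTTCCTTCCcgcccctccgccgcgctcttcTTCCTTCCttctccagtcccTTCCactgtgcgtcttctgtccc
GALNT7: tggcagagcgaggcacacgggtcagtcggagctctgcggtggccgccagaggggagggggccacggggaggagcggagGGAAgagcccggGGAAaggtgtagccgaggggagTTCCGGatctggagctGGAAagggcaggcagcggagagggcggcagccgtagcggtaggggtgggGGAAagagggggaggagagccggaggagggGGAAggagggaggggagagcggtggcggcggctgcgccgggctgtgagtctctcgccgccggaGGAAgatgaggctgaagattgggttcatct
MGAT2: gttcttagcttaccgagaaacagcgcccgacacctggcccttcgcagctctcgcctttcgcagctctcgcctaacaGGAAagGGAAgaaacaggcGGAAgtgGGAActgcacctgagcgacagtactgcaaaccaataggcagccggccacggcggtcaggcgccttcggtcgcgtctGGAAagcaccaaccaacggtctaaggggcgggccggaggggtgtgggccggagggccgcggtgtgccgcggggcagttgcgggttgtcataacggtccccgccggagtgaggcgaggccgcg

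The ST8SIA4 window held 2 cores, 1 on each strand. In the ST6GAL1 window all 5 cores lay on the other strand, 4 of them as back-to-back TTCC repeats toward the 3′ end. GALNT7, which was lower, held 7 cores and the single CCGGAA among the 4 windows, and MGAT2, also lower, held 5. The GGAA core is common in such windows: 95.5% of 35116 promoter windows held it on either strand, and 94.0% of the 134 windows of 86 member genes. CCGGAA, which contains the core, was found in 19.4% of the member windows and 17.2% of all windows. Among the members whose groups did not overlap, 97.6% of 41 windows of 20 higher genes held GGAA and 19.5% held CCGGAA, and 78.6% and 14.3% of 14 windows of 9 lower genes did so. The 4 printed windows therefore do not stand for their groups. A match in these letters is not a binding site, and no binding was measured.

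Sialyltransferases were the class with most members on the higher side. Of 19 coding members, 16 had a positive and 3 a negative fold change, and the median was 0.12. At or below background lay 10 of the 19, and above it 8 were positive and 1 negative. The groups did not overlap in 11 of them, 10 higher (52.6%, all genes 21.7%) and 1 lower (5.26%, all genes 19.1%). With an unadjusted p below 0.05 there were 3 higher members (15.8%, all genes 5.61%) and 0 lower ones (all genes 4.11%). Without ST8SIA4 and ST6GAL1 the median of the other 17 was 0.11. With each array left out in turn the median of all 19 lay between 0.086 and 0.18, and over all settings tried between 0.045 and 0.18. For the 17 the ranges were 0.051 to 0.095 and 0.038 to 0.11.

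ST8SIA4 read 4.71 and 4.92 in the arrays labelled LNCap ERG, against 3.51 and 3.70 in the LNCap Vector arrays. Both vector values lie below the background level and both ERG-labelled values above it. The log2 fold change was 1.21 (standard error 0.11, 95% interval 0.92 to 1.50, adjusted p = 0.12 from limma). Because the vector arrays were not above background, this size is uncertain. With the background level of 4.45 in their place the intensity was at least 1.29-fold higher. That minimum holds for this level only. Both ERG-labelled values lie below the 95th percentile of the other-organ genes, 6.48, which gives no such minimum. The adjusted p was 0.018 with trended and robust moderation, but the fold change was 0.45 with the mean of the 5 probe sets and 0.65 with a pseudocount of 16. A further pair of dimmer probe sets separated the groups in the same direction, by 0.46 and 0.57, and the last 2, at a level of 2.85 and 2.67, differed by 0.06 and -0.05. Among the other enzymes that make chains of sialic acid, ST8SIA2, the second polysialic acid synthase, read 2.78 and 3.10 in the ERG-labelled arrays, against 2.97 and 2.95 in the vector arrays, and ST8SIA1, the GD3 ganglioside synthase, read 2.64 and 2.61 in the ERG-labelled arrays, against 2.80 and 2.67 in the vector arrays. No ST8SIA member lay above background by its mean.

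ST6GAL1 read 6.16 and 6.10 in the arrays labelled LNCap ERG and 5.59 and 5.60 in the LNCap Vector arrays. The gap between groups was therefore several times the gap within either. The log2 fold change was 0.53 (standard error 0.08, 95% interval 0.34 to 0.73, adjusted p = 0.24 from limma). Leaving out genes below the median intensity brought the adjusted p to 0.043, and averaging the 3 probe sets brought the fold change to 0.25, the other 2 probe sets lying near 3 with differences of 0.08 and 0.14. ST6GAL2, the brain-enriched paralogue, was at background (3.03 ± 0.08 in the arrays labelled LNCap ERG and 2.88 ± 0.29 in the LNCap Vector arrays, SD, n = 2 each).

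All 6 ST3GAL genes, whose enzymes attach sialic acid in α2,3 linkage to galactose, had a positive fold change, with a median of 0.20, and in 5 of them (83.3%) the groups did not overlap, where 21.7% of all genes were apart on that side. ST3GAL1, the brightest member of all, read 10.63 and 10.50 in the arrays labelled LNCap ERG and 10.38 and 10.30 in the LNCap Vector arrays (log2 fold change 0.22 ± 0.09, SE, adjusted p = 0.51 from limma). Its second probe set differed by 0.20 without overlap, its dimmest by 0.02 with overlap, and the mean of the 3 by 0.15. ST3GAL2, which sialylates gangliosides and O-glycans, read 5.36 and 5.11 in the ERG-labelled arrays, against 4.80 and 5.08 in the vector arrays, so that its nearest arrays were only just apart, and the mean of its 4 probe sets differed by 0.10. ST3GAL4 read 5.01 and 4.81 in the ERG-labelled arrays, against 4.78 and 4.61 in the vector arrays, and ST3GAL5, the GM3 ganglioside synthase, 5.11 and 4.90 in the ERG-labelled arrays, against 4.80 and 4.84 in the vector arrays. Each of these 3 differed by 0.30 or less, with adjusted p-values of 0.56 to 0.61. ST3GAL6 was at background and overlapped. Without LNCap Vector replicate 2, 5 of the 6 were positive, and over single arrays left out the family median lay between 0.098 and 0.29. With the mean of probe sets 5 of the 6 were positive (median 0.125), and with plain probe sets only 4 of 5 (median 0.14). The shared direction therefore depends on the probe sets used.

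The ST6GALNAC enzymes, which attach sialic acid to the GalNAc of O-glycans or of gangliosides, had fold changes of -0.08 to 0.30 at the probe sets used. ST6GALNAC1, the sialyl-Tn synthase, read 7.65 and 7.66 in the arrays labelled LNCap ERG and 7.62 and 7.61 in the LNCap Vector arrays, a fold change of 0.04 on the log2 scale. ST6GALNAC2 had the highest fold change of this family at 0.30, at a background level of 3.47. ST6GALNAC4 differed by 0.02 with overlap at its brightest probe set, but its other 3 lay apart on the higher side, by 0.19 and 0.25 above background and by 0.14 at background. Over the 6 genes 5 were positive, and the median was 0.027.

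**Figure D2:**
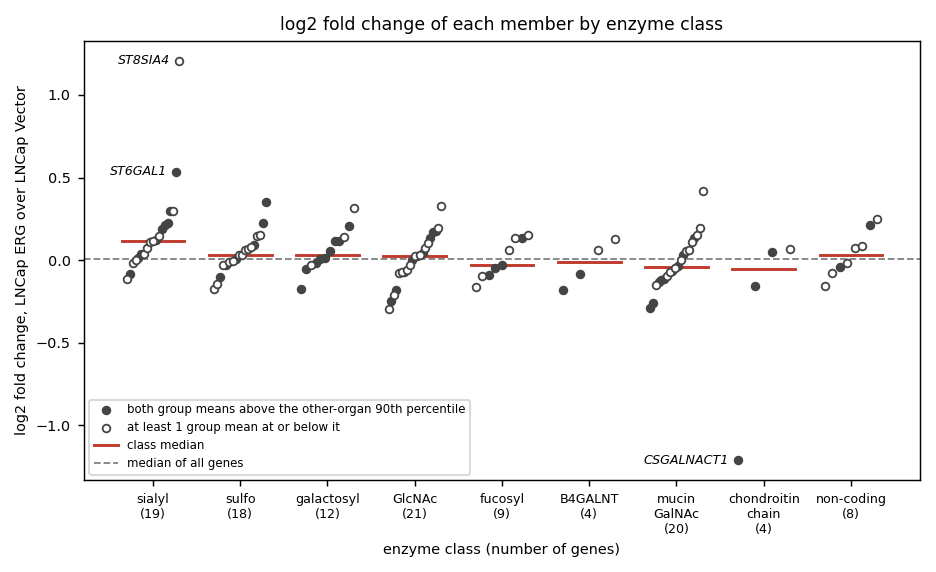
Log2 fold change of every member gene, arrays labelled LNCap ERG over LNCap Vector, 1 point a gene, by enzyme class, with a red line at the class median and a dashed line at the median of all genes; filled points have both group means above the background level. The sialyltransferase median is 0.12 and the mucin-type GalNAc-transferase median -0.04, and most genes of every class lie within 0.2 of 0.

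Polypeptide GalNAc-transferases, which set the first sugar of mucin-type O-glycans on serine or threonine, had a median just below 0. Over the 20 coding members 9 were positive and 11 negative, with a median of -0.04. There were 2 apart on the higher side (10%, all genes 21.7%) and 4 on the lower (20%), a share near the 19.1% of all genes. Above background 2 were positive and 7 negative. GALNT7, which adds GalNAc next to sites already glycosylated, was the brightest of the class and read 10.14 and 10.30 in the arrays labelled LNCap ERG, against 10.47 and 10.55 in the LNCap Vector arrays. Its log2 fold change was -0.29 (standard error 0.09, adjusted p = 0.45 from limma), and the second probe set differed by -0.41, also without overlap. The transcript that runs divergently from it, GALNT7-DT, was at background and overlapped between groups.

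GALNT1, one of the broadly expressed initiating enzymes, read 9.50 and 9.49 in the arrays labelled LNCap ERG, against 9.66 and 9.55 in the LNCap Vector arrays, and 3 of its 5 probe sets lay apart on the lower side. GALNT3 read 9.07 and 9.15 in the ERG-labelled arrays, against 9.21 and 9.28 in the vector arrays. Its second probe set was also lower, but by only -0.06 and at a background level of 3.16. GALNT2, another broadly expressed initiator, overlapped at 9.80 and 9.73 in the ERG-labelled arrays, against 9.85 and 9.76 in the vector arrays. The fold changes of these 3 lay between -0.13 and -0.04. GALNT12 had the highest fold change of the class, 0.42, but averaged 3.83 ± 0.42 in the arrays labelled LNCap ERG and 3.41 ± 0.57 in the LNCap Vector arrays (SD, n = 2 each), at background and with overlap. GALNTL5, which lacks the lectin domain of the family, read 2.73 and 2.76 in the ERG-labelled arrays, against 2.85 and 2.78 in the vector arrays.

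Of the 4 B4GALNT genes, which add GalNAc in β1,4 linkage to glycolipids or to LacdiNAc and Sda-type ends, 2 were positive and 2 negative. The brightest, B4GALNT1, the GM2 and GD2 ganglioside synthase, read 5.42 and 5.45 in the arrays labelled LNCap ERG, against 5.84 and 5.40 in the LNCap Vector arrays, and its fold change of -0.18 turned positive, to 0.037, without LNCap Vector replicate 1. B4GALNT3, a LacdiNAc synthase, differed by 0.13 without overlap, at background.

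Chondroitin chain enzymes held the largest downward difference of all members. CSGALNACT1, which transfers the first GalNAc of a chondroitin chain to the linkage region, read 4.92 and 4.83 in the arrays labelled LNCap ERG, against 5.91 and 6.26 in the LNCap Vector arrays. All 4 values lay above background and the groups were about a log2 unit apart. The log2 fold change was -1.21 (standard error 0.14, 95% interval -1.56 to -0.87, adjusted p = 0.16 from limma), a 2.32-fold lower intensity, and the gene ranked 8 of 19583 by size of downward change. With trended and robust moderation the adjusted p was 0.015, and 0.029 with genes below the median intensity left out. With single arrays left out the fold change lay between -1.39 and -1.03. This rests on 1 probe set. The paralogue CSGALNACT2 had overlapping groups at the probe set used (log2 fold change -0.15) and differed by -0.41 without overlap at a second one of nearly equal level. CHSY1, which polymerizes the chain, read 9.12 and 9.32 in the ERG-labelled arrays, against 9.16 and 9.17 in the vector arrays, and CHSY3 was at background with a fold change of 0.07. Thus 1 of 4 genes (25%) differed at an unadjusted p under 0.05, where 9.71% of all genes did.

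Sulfotransferases differed less. Of 18 genes 11 were positive and 7 negative, with a median of 0.032, and 5 lay apart on the higher side (27.8%, all genes 21.7%) and 1 on the lower (5.56%, all genes 19.1%). HS6ST2, which sulfates heparan sulfate at the 6-O position, read 6.68 and 6.69 in the arrays labelled LNCap ERG and 6.48 and 6.44 in the LNCap Vector arrays. Its log2 fold change was 0.23 (standard error 0.07, adjusted p = 0.45 from limma), a second probe set of like level differed by 0.28, and the dimmest, at background, by -0.20, so that the mean of the 3 differed by 0.10. Its paralogue HS6ST1 had a smaller difference of 0.09, likewise without overlap, at 2 of 3 probe sets. CHST3, a chondroitin 6-O-sulfotransferase, read 5.23 and 5.54 in the ERG-labelled arrays, against 4.90 and 5.17 in the vector arrays, apart by little between its nearest arrays, with an adjusted p of 0.54 from limma. CHST14, the dermatan 4-O-sulfotransferase and the brightest of the class, read 8.52 and 8.47 in the ERG-labelled arrays, against 8.56 and 8.63 in the vector arrays. CHST15, which sulfates chondroitin a second time on GalNAc, had the lowest fold change at -0.17, at background and with overlap.

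**Figure D3:**
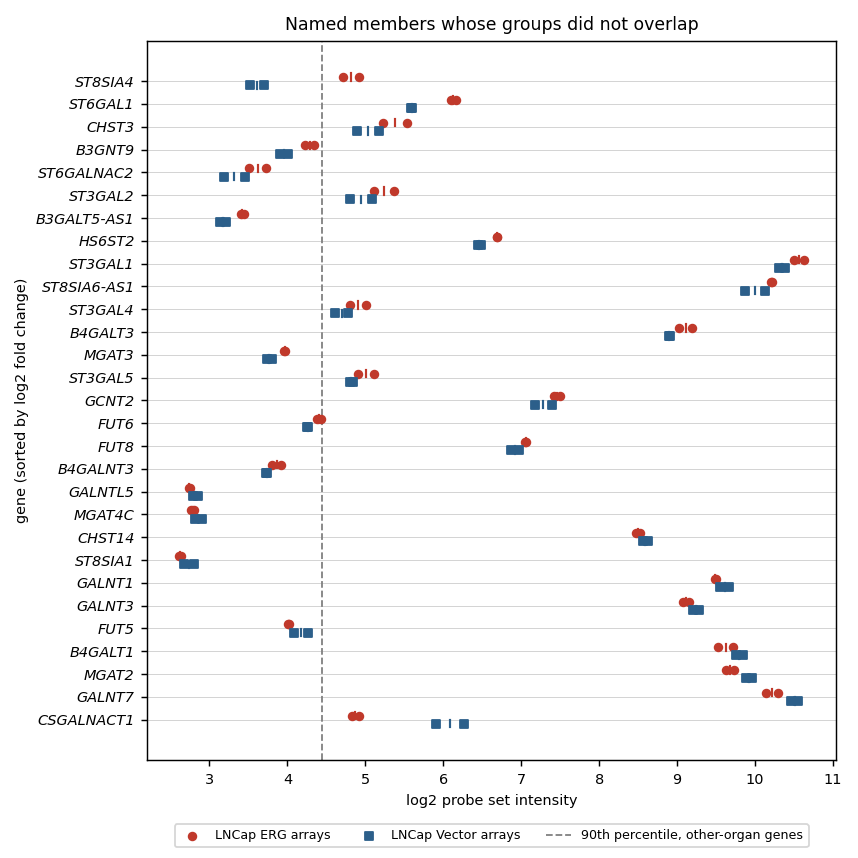
Log2 probe set intensity in each array labelled LNCap ERG (red circles) and each LNCap Vector array (blue squares) for the 29 named members whose groups did not overlap, with a tick at each group mean and a dashed line at the background level (4.45). The gap is 1.21 log2 units for ST8SIA4 and for CSGALNACT1 and 0.53 for ST6GAL1, and 0.35 or less for the others.

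GlcNAc-transferases were split in direction. Of 21 genes 12 were positive and 9 negative, and 4 were apart on the higher side (19.0%, all genes 21.7%) and 2 on the lower (9.52%, all genes 19.1%). MGAT2, which adds the second GlcNAc branch and so completes the core of complex N-glycans, read 9.62 and 9.72 in the arrays labelled LNCap ERG, against 9.88 and 9.96 in the LNCap Vector arrays (log2 fold change -0.25 ± 0.09, SE, adjusted p = 0.46 from limma). A second bright probe set differed by only -0.05 with overlap, and the mean of the 3 differed by -0.08. MGAT1, which adds the first branch, read 7.25 and 7.18 in the ERG-labelled arrays, against 7.02 and 7.07 in the vector arrays and so lay on the other side. The branching enzymes MGAT4B, the brightest of the class, and MGAT5, which makes the β1,6 branch, overlapped, with fold changes of 0.03 and 0.04. MGAT5B, a brain-enriched paralogue of MGAT5, had the lowest fold change of the class at -0.30, at background and with overlap.

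MGAT3, the bisecting GlcNAc enzyme, read 3.97 and 3.96 in the arrays labelled LNCap ERG and 3.80 and 3.74 in the LNCap Vector arrays, all at background, and its second probe set differed by -0.21. Its direction therefore depends on the probe set. B3GNT9 had the highest fold change of the class (0.33, adjusted p = 0.39 from limma) at 4.23 and 4.34 in the ERG-labelled arrays, against 4.01 and 3.90 in the vector arrays, again below the background level. GCNT2, which makes the branches of the blood group I antigen, read 7.50 and 7.42 in the ERG-labelled arrays, against 7.18 and 7.40 in the vector arrays. GCNT1, the core 2 branching enzyme, overlapped, with a fold change of -0.18.

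Galactosyltransferases included 7 B4GALT genes, and all 7 lay above background. Most of these enzymes make the lactosamine and lactose units that other enzymes cap. B4GALT1 read 9.52 and 9.72 in the arrays labelled LNCap ERG, against 9.75 and 9.84 in the LNCap Vector arrays, and B4GALT3 read 9.19 and 9.03 in the ERG-labelled arrays, against 8.90 and 8.90 in the vector arrays, so these bright relatives lay on opposite sides of 0. The mean of the 2 B4GALT3 probe sets differed by 0.10. B4GALT1 had 7 probe sets, 2 apart on the lower side and 5 overlapping, and a different probe set gave 0.054. B3GALT1 had the highest fold change of the class, 0.31, at background and with overlap. Over the 12 genes 8 were positive and 4 negative, with a median of 0.033 and 0 at an unadjusted p under 0.05 (all genes 9.71%).

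Fucosyltransferases showed the least spread. The 9 genes had fold changes of -0.16 to 0.15, with a median of -0.03, and 0 at an unadjusted p under 0.05 (all genes 9.71%). FUT8, which adds the core α1,6 fucose of N-glycans and was the brightest, read 7.07 and 7.05 in the arrays labelled LNCap ERG and 6.87 and 6.97 in the LNCap Vector arrays, and its second probe set differed by 0.18, also without overlap. FUT1, the H antigen enzyme, overlapped, with a fold change of -0.05. The Lewis-type α1,3 enzymes FUT5 and FUT6, close paralogues whose probes may share targets, were at background, with differences of -0.16 and 0.15 on opposite sides of 0. The sign of FUT6 turned, to -0.11, at another probe set.

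Of the 8 transcripts that only share a prefix, ST8SIA6-AS1, a long non-coding RNA antisense to a sialyltransferase gene, was the brightest at 10.22 and 10.21 in the arrays labelled LNCap ERG, against 10.12 and 9.87 in the LNCap Vector arrays (log2 fold change 0.21, adjusted p = 0.58 from limma). B3GALT5-AS1 read 3.40 and 3.44 in the ERG-labelled arrays, against 3.21 and 3.13 in the vector arrays, at background. GCNT1P1, a pseudogene of GCNT1, had the lowest fold change, -0.16, with overlap.

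Where a gene has several probe sets, they can be set against each other. Of 240 member probe sets, 57 (23.75%) lay apart on the higher side and 39 (16.25%) on the lower, where 18.9% and 20.1% of all single-gene probe sets did so, and 144 overlapped. In 33 of the 71 genes with more than 1 probe set all of them fell on the same side of 0. With only probe sets above background counted, 22 genes had 2 or more, and in 15 of the 22 these fell on the same side, 9 above 0 and 6 below. In 4 of the 22 every such probe set was apart in the same direction: FUT8, HS6ST1 and HS6ST2 on the higher side and GALNT7 on the lower. The same count was not made over all genes, so whether 4 of 22 is unusual is not known. At the 1 probe set used, 23.8% of all genes above background were apart on the higher side and 23.1% on the lower. Probe sets of 1 gene are not replicates of a condition, since they read the same RNA.

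**Figure D4:**
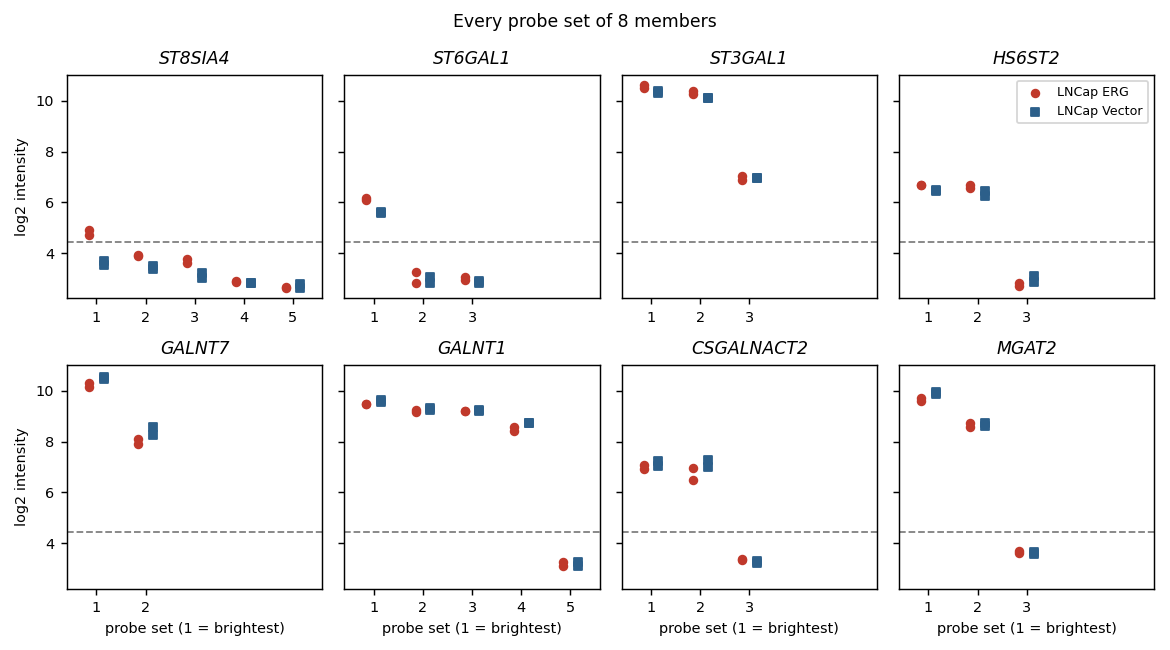
Log2 intensity of every probe set of 8 members, ordered by mean intensity, in each array labelled LNCap ERG (red circles) and each LNCap Vector array (blue squares), with a dashed line at the background level. In ST8SIA4 the brightest probe set differs by 1.21 and the others by -0.05 to 0.57, and both probe sets of GALNT7 are lower in the arrays labelled LNCap ERG.

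The other genes of these pathways were taken from lists of donor, transporter, backbone, carrier and related genes, and 0 of them passed an adjusted p of 0.05. Among 18 measured genes that make sugar nucleotide and sulfate donors, 0 differed at an unadjusted p under 0.05 (all genes 9.71%). NANS, the sialic acid 9-phosphate synthase, read 9.96 ± 0.03 in the arrays labelled LNCap ERG and 10.09 ± 0.07 in the LNCap Vector arrays (SD, n = 2 each). GNE, which makes the first committed precursor of sialic acid, was at background, with 2.95 ± 0.29 in the arrays labelled LNCap ERG and 2.88 ± 0.18 in the LNCap Vector arrays (SD, n = 2 each).

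Among 10 measured Golgi transporters 2 were lower at an unadjusted p under 0.05 (20%, all genes 4.11%) and 0 higher (all genes 5.61%). SLC35A1, which brings CMP-sialic acid, the donor of every sialyltransferase, into the Golgi, read 6.10 and 6.34 in the arrays labelled LNCap ERG, against 6.52 and 6.58 in the LNCap Vector arrays (log2 fold change -0.33, adjusted p = 0.45 from limma). SLC35B3, a transporter of PAPS, the sulfate donor, differed by -0.26 (adjusted p = 0.48). In both transporters the groups did not overlap.

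Outside the chosen prefixes, 28 genes for glycosaminoglycan backbones and heparan sulfate were measured, with a median of -0.08. An unadjusted p under 0.05 was reached by 2 that were higher and 3 that were lower. These are 7.14% and 10.7%, beside 5.61% and 4.11% of all genes. DSE, the dermatan sulfate epimerase, read 4.41 and 4.43 in the arrays labelled LNCap ERG, against 4.81 and 4.73 in the LNCap Vector arrays (adjusted p = 0.35 from limma). Its ERG-labelled values lie just below the background level. HS3ST3B1, a heparan sulfate 3-O-sulfotransferase, read 4.97 and 4.62 in the ERG-labelled arrays, against 4.35 and 4.14 in the vector arrays (log2 fold change 0.55, adjusted p = 0.39 from limma). Both of its vector values lie below the background level, so this size is uncertain. XYLT1, which starts the linkage region, was at background, with a fold change of -0.32.

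Of the proteins that carry these chains, 24 were measured, and an unadjusted p under 0.05 was reached by 3 higher and 4 lower ones. These are 12.5% and 16.7%, beside 5.61% and 4.11% of all genes. CADM1, an adhesion molecule that can carry polysialic acid, read 6.03 and 6.18 in the arrays labelled LNCap ERG, against 6.69 and 6.57 in the LNCap Vector arrays (log2 fold change -0.53, adjusted p = 0.29 from limma). NCAM1, the main polysialic acid carrier, was near background and did not separate the groups (4.37 ± 0.13 in the arrays labelled LNCap ERG and 4.34 ± 0.30 in the LNCap Vector arrays, SD, n = 2 each). Among the syndecans, SDC4 had a fold change of 0.29 and SDC2 of -0.34, so these 2 heparan sulfate carriers went in different directions. The other heparan sulfate carriers of the list are not described here.

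**Figure D5:**
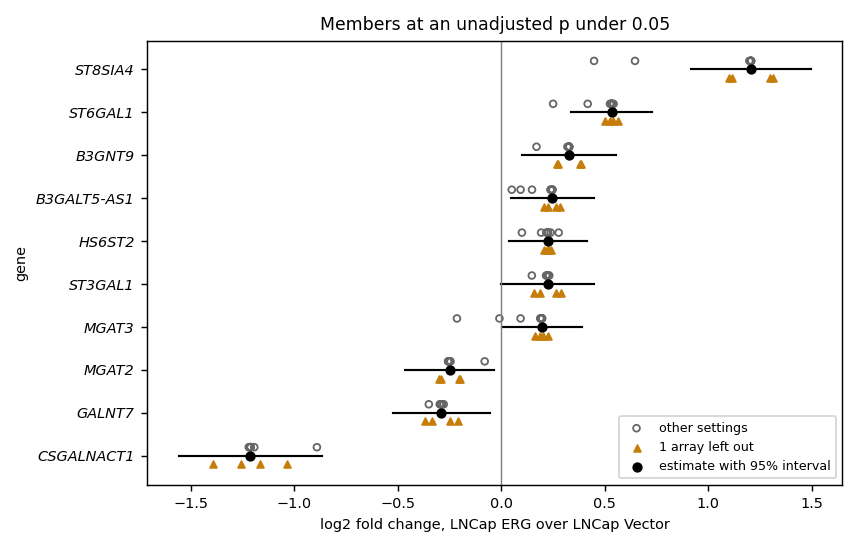
Log2 fold change of the members at an unadjusted p under 0.05 (black points with 95% intervals from limma), with each array left out in turn (triangles) and under the other processing settings (open circles), arrays labelled LNCap ERG over LNCap Vector. CSGALNACT1 stays at or below -0.89 and ST8SIA4 at or above 0.45 in every setting, and MGAT3 crosses 0.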

How the data were processed

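The authors deposited the intensity of each probe set on each array, made with dChip and RMAexpress and annotated with Multiexperiment Viewer, in versions not given in the sources used here. Whether the deposited intensities were on a linear scale was judged from their values. Missing values excluded 2 probe sets. Log2 of the deposited intensities was used with no further normalization. Of 51965 probe sets, 39466 named 1 gene, 838 several and 11661 none, and only the first kind was used. By Entrez identifier 39413 matched RefSeq (GRCh38.p14), and all 240 member probe sets matched. No column of another sample was present.

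The brightest probe set of each gene, by its average on the 4 arrays, was fitted in R 4.3.3 with limma 3.58.1 (lmFit, eBayes), with no covariate, 2 residual and 3.23 prior degrees of freedom, and Benjamini-Hochberg adjustment over 19583 genes. Array pairs differed by an SD of 0.18 within the ERG-labelled pair, 0.19 within the vector pair and 0.19 to 0.24 between groups (log2). Tables and plots were made in Python 3.11.15 with numpy 2.4.6, pandas 2.3.3 and matplotlib 3.10.9. The fit was tested on simulated arrays.

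The members and the gene lists were chosen with earlier results of these data known. Members were named by rule: up to 15 non-overlapping members with the largest fold change in each direction, and the brightest, highest and lowest member of each class. From the gene lists, up to 3 genes with the smallest p in each list, CD24, NCAM1, C1GALT1, GNE and ERG were named. Other members named to complete a family (such as ST8SIA2, ST6GAL2, ST6GALNAC1, MGAT1, MGAT5, GCNT1, FUT1, HS6ST1 and GALNT2) were chosen after their values were seen. Promoter windows are from RefSeq, GRCh38.p14, with 86 member genes matched. They stand in for the proteins planned, for which no sequence was used here.

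Alternative settings changed the moderation (trended and robust), the filter (dim genes removed), the probe sets (averaged, all at once, or plain ones alone), the scaling (renewed quantile normalization, housekeeping centring), the pseudocount (16), the model (replicate block, the methods' t-test) and the arrays (each removed in turn). Arrays have no read depth, and their number limits the precision.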

Additional observations from a re-analysis of the deposited data

How the results depend on the processing

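The labels give both groups the replicate numbers 1 and 2, but nothing says that a number marks a shared culture or day. The deviations of same-numbered arrays correlated at 0.077 over all genes. This value alone cannot decide whether the arrays were paired, and the main fit used no pairing. With the replicate number as a block, 0 genes passed an adjusted p of 0.05 over all genes, and 0 members passed. At an unadjusted p under 0.05, 5 members were lower. In both directions together 11.3% of members reached it with this block, beside 9.74% of all genes. Over all genes 2 passed as processed, against 89 with trended and robust moderation, 54 with genes below the median intensity left out, 27 with a pseudocount of 16, 14 with the mean of probe sets, 6 with housekeeping centring, 0 with all probe sets tested together, 0 with the methods' t-test, and 0 to 0 with single arrays left out. Of the members 0 passed as processed, 2 with trended and robust moderation (CSGALNACT1 and ST8SIA4) and 2 with genes below the median intensity left out (CSGALNACT1 and ST6GAL1), and 0 to 0 with arrays left out. The 7 members higher at an unadjusted p under 0.05 became 4 with the mean of probe sets, 4 with plain probe sets only, and 4 to 10 with arrays left out. The 3 lower ones became 6 with all probe sets tested together, 1 with the methods' t-test, and 3 to 5 with arrays left out. The members' median of 0.030 lay between -0.0025 and 0.067 with arrays left out, the lowest without LNCap ERG replicate 1. The sign turned with plain probe sets for B4GALT1 (0.054), FUT6 (-0.11) and MGAT3 (-0.21), and with the mean of probe sets for MGAT3 (-0.0082). With arrays left out it turned for B4GALNT1 (-0.40 to 0.037), CHSY1 (-0.050 to 0.15), CHSY3 (-0.090 to 0.23) and GCNT1P1 (-0.39 to 0.079). Of 38 named members, 30 kept their sign in every setting that gave a value; GALNT1, whose plain probe set had equal group means to within rounding (4.63e-08), is not among them. Other probe sets or fewer arrays make up these settings by construction, and beyond that the cause was not tested. Of 115 members 62 lie at the level of genes of other organs, and signal over background limits what can be seen there.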

Other observations

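Lists of glycan-related genes outside the chosen prefixes gave these further values. Among 23 measured O-glycan, glycolipid and other glycosyltransferases, an unadjusted p under 0.05 was reached by 1 higher and 1 lower gene. Each is 4.35% of the list, beside 5.61% and 4.11% of all genes. UGT8, which makes galactosylceramide, read 6.63 and 6.52 in the arrays labelled LNCap ERG and 6.01 and 6.16 in the LNCap Vector arrays (log2 fold change 0.49, adjusted p = 0.32 from limma). EOGT, which sets O-linked GlcNAc on proteins in the endoplasmic reticulum, read 4.94 and 5.13 in the arrays labelled LNCap ERG, against 5.35 and 5.44 in the LNCap Vector arrays. C1GALT1, the core 1 synthase, overlapped, with a log2 fold change of -0.09. Of 11 N-glycan trimming enzymes, the Golgi mannosidase MAN2A1 was lower at an unadjusted p under 0.05 (log2 fold change -0.26, adjusted p = 0.51 from limma) and 0 were higher. That gene is 9.09% of the list, beside 4.11% of all genes. Among 21 glycan-removing enzymes 0 differed at an unadjusted p under 0.05 (all genes 9.71%).

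Of 18 measured selectins, siglecs and galectins, which read the finished glycans, an unadjusted p under 0.05 was reached by 2 higher and 0 lower genes. These are 11.1% and 0%, beside 5.61% and 4.11% of all genes. SIGLEC7, a receptor for disialic acid, averaged 4.65 ± 0.06 in the arrays labelled LNCap ERG and 4.17 ± 0.06 in the LNCap Vector arrays (SD, n = 2 each, log2 fold change 0.47, adjusted p = 0.29 from limma). Its vector mean lies below the background level, so this size is uncertain. LGALS8, a galectin that binds sialylated and sulfated galactosides, read 8.55 and 8.65 in the arrays labelled LNCap ERG and 8.18 and 8.30 in the LNCap Vector arrays (log2 fold change 0.36, adjusted p = 0.37). CD24, a heavily glycosylated small surface protein, had a log2 fold change of 0.84 (adjusted p = 0.22), with 5.67 ± 0.20 in the arrays labelled LNCap ERG and 4.82 ± 0.02 in the LNCap Vector arrays (SD, n = 2 each).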
